A study of Mus musculus with 2 samples.

Results

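The genes described are 10 cytokines and cytokine receptors that stromal cells use to signal tissue damage and inflammation, among 33696 genes listed for the fibroblasts of the mouse mammary gland. They comprise 5 ligands, *Il33*, *Tslp*, *Il6*, *Lif* and *Csf1*, and 5 receptor chains, *Il1rl1*, *Il1r1*, *Il6st*, *Osmr* and *Il11ra1*, and were found by symbol in the deposited matrices. They were selected from these libraries with their levels at each stage and in each subset in view, so the values of the members are a description and nothing is read from how many of them differ. All 10 were detected, and 9 of the 10 reached 10 counts per 1000000 UMIs (CPM) in at least 1 library, the level from which a ratio was counted. *Lif*, at 2.90 CPM and 1.98 CPM, did not.

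Droplet-based scRNA-seq of the stroma was available for 1 pubertal library (4 weeks of age) and 1 adult library (virgins of 9 weeks), both carrying the label of replicate 2. The pubertal age is that of the labels, and the study's methods give a slightly greater one. Each held the mammary stromal cells of 2 female wild-type C57BL/6 mice, pooled, and neither group carried a transgene or treatment. The cells had been sorted as negative for lineage markers and for CD24, which removes most immune, endothelial, red blood and epithelial cells. With 1 library per stage there was no replicate, no test across animals was possible, and every interval below is a 95% interval for counting error alone.

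Alarmins are cytokines that barrier and stromal cells hold ready and release upon damage. IL-33 is kept in the nucleus and acts on neighbouring cells through ST2, the product of *Il1rl1*, while TSLP is secreted, and both are known as activators of type 2 innate lymphoid cells and mast cells. The cytokines of the IL-6 family, among them IL-6, LIF, IL-11 and oncostatin M, bind a ligand-specific chain such as the products of *Il11ra1* or *Osmr*, which then pairs with the shared chain gp130 encoded by *Il6st* and signals through JAK kinases and STAT3. IL-1R1 is the signalling receptor of IL-1, and fibroblasts are known to answer IL-1 with NF-kB target genes including *Il6*. M-CSF, encoded by *Csf1*, sustains macrophages.

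Cells with at least 500 genes, at most 10% mitochondrial UMIs and at least 1 UMI of the fibroblast gene *Pdgfra* numbered 18878 at puberty and 20999 in the adult, 87.7% and 91.4% of the cells that passed quality control. Their median depth was 12187 and 11265 UMIs, and 3 UMIs in a whole library correspond to 0.0127 and 0.0121 CPM. At least 3 of 5 fibroblast markers were present in 99.9% and 99.8% of them. *Pdgfra* is among the 5 and was present by the choice of cells. Of the others, *Lum* was found least often, in 98.3% and 97.6% of these cells. Their immune markers summed to 0.182 and 0.372 CPM, and *Ptprc*, which encodes the leukocyte antigen CD45, had 1 and 4 UMIs. None of the cells with *Il1rl1* or *Il33* had a *Ptprc* UMI in either library. The endothelial marker *Pecam1* was in 10.4% and 4.16% of cells, but at least 3 of 5 endothelial markers in 0.0159% and 0.0762%. A *Pecam1* UMI was in 11.2% and 5.06% of the cells with *Il1rl1*, against 10.3% and 4.14% of those without it. For *Il33* these shares were 11.3% and 4.70%, against 9.87% and 4.03%. Mast cell and innate lymphoid genes *Cpa3*, *Kit*, *Gata3* and *Il7r* were between 0.00404 and 0.456 CPM, whereas *Rora*, which fibroblasts also express, gave 792.8 and 1281.8 CPM. The 2 libraries shared 145 cell barcodes. Within the *Pdgfra*-positive cells, 6 overlapping subsets were set by UMIs of their marker genes, the cells with both *Pi16* and *Dpp4* (Pi16+Dpp4+), those with at least 2 UMIs of *Ccn5* or of *Fabp4*, and those with at least 1 UMI of *Gdf10* or *Fmo2*, of *Thbs4* or *Bmp5*, or of *Crabp1*. In bulk sums such as these, fewer cells with a transcript and less transcript per cell cannot be told apart, so shares of cells are given as well.

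The start sites of *Il1rl1*, *Il33* and *Il6*, whose values are described at most length below, are shown by the 150 bases before each start (RefSeq, GRCm38.p6). These bases are printed 5′ to 3′ in the direction of transcription, in lower case with motif matches in capitals. Of the motifs searched on either strand, the NF-kB motif GGGANTTTC occurs in 0.563% of 32851 promoter windows of this length, the TATA box TATAAA in 7.57%, the AP-1 motif TGAGTCA in 2.84%, the cAMP response element TGACGTCA in 1.36% and the STAT motif TTCNNNGAA in 4.09%.
Il6, chr5:30012964-30013113, plus strand: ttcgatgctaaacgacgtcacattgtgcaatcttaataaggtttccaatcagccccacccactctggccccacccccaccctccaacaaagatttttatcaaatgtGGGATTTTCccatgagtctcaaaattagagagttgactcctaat
Il33, first start site, chr19:29924963-29925112, plus strand: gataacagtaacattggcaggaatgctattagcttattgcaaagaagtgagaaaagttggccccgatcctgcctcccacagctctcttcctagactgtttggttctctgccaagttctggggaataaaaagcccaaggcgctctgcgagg
Il33, second start site, chr19:29945640-29945789, plus strand: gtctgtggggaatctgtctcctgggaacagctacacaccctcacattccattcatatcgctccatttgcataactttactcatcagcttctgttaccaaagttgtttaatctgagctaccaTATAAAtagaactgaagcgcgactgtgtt
Il1rl1, first start site, chr1:40429420-40429569, plus strand: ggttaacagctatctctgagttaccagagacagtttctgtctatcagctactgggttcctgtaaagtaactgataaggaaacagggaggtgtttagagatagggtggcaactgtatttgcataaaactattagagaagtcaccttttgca
Il1rl1, second start site, chr1:40439479-40439628, plus strand: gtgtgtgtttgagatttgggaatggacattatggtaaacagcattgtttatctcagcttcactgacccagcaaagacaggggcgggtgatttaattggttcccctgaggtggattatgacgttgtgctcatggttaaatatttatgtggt

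The capitals mark 1 NF-kB match in *Il6*, starting 44 bases before the start site, and 1 TATA box in the second *Il33* promoter, starting 29 bases before it. No other of these letters were found in the 5 windows, which says nothing of what binds there. The start sites of *Il1rl1* lie 10.1 kb apart and those of *Il33* 20.7 kb apart. Counts from 3′ ends are per gene and do not tell start sites or isoforms apart, including the membrane-bound and soluble forms of ST2.

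Between the stages, 4 of the 9 members that reached 10 CPM were at least 1.5-fold lower in the adult library, where 5.09% of the 8645 genes at that level were, and 2 of 9 were at least 1.5-fold higher, where 12.0% of genes were. The lower members were *Il1rl1*, *Il6*, *Il1r1* and *Il33*, and the higher were *Tslp* and *Il11ra1*. The median log2 ratio of adult over puberty was 0.13 over all 8645 genes, -0.13 over the 9 members and -0.34 over all 10. Scaling by TMM factors in place of the UMI total moved the background to 7.51% lower and 7.91% higher, and then the 4 lower members were still counted, *Il11ra1* lay at a ratio of 1.37, and *Tslp*, at 1.77, was under 10 CPM in both libraries. Relative to the median of all genes, the log2 ratios of the remaining members at this level were -0.26 for *Il6st*, -0.12 for *Csf1* and 0.10 for *Osmr*.

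**Figure D1:**
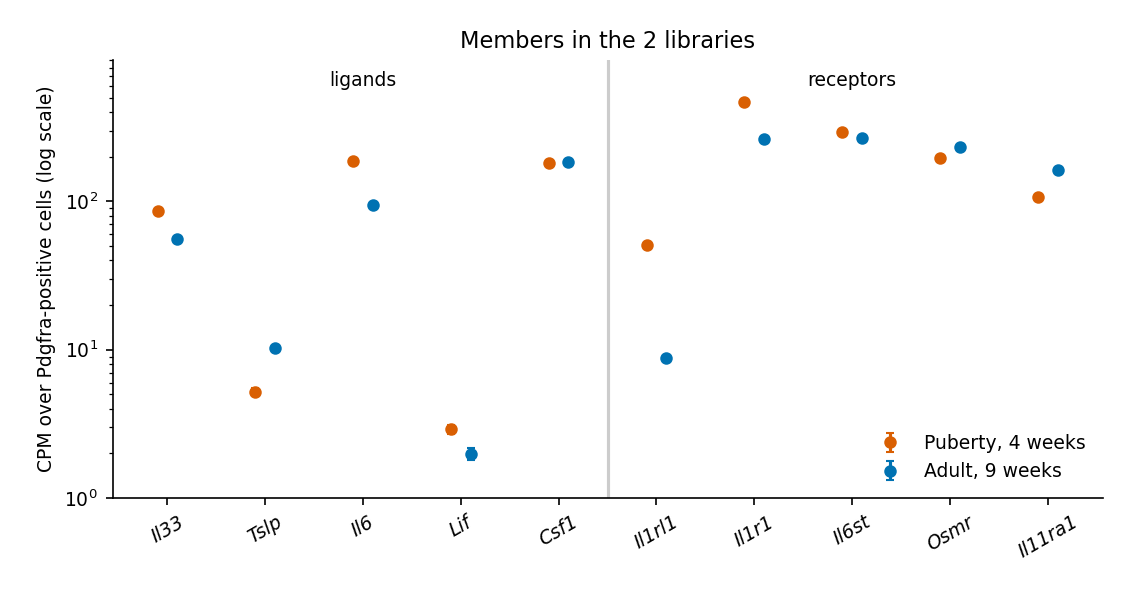
CPM (log axis) of each member over all Pdgfra-positive cells of the pubertal library (orange) and the adult library (blue), ligands on the left and receptors on the right. Bars are exact Poisson 95% intervals, mostly smaller than the points. The widest gap is that of Il1rl1, at 50.8 and 8.76 CPM.

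Among the ligands, *Il33* was highest in the cells with *Pi16* and *Dpp4*, which mark adventitial fibroblasts in many tissues. The gene lies at chr19:29925114-29960718 on the plus strand (GRCm38, GENCODE, as for all gene positions below). Over all *Pdgfra*-positive cells it was at 86.1 CPM at puberty (84.9 to 87.3) and 56.1 CPM in the adult (55.2 to 57.1), and its adult over pubertal ratio was 0.652 (0.638 to 0.666), or 0.672 without marked doublets and then no longer past the fold. After each cell was thinned to 3000 UMIs, which left out 336 and 426 shallower cells, 17.9% of pubertal cells (17.4 to 18.5) and 10.4% of adult cells (9.95 to 10.8) had an *Il33* UMI. Unthinned, the shares were 36.8% and 19.9%. Both measures were lower in the adult library. In *Pdgfra*-negative cells with at least 3 of 5 mural markers, which should lack the gene and were shallower (402 and 308 cells, medians of 6629 and 6056.5 UMIs), 5 *Il33* UMIs were counted at puberty and 0 in the adult. All *Pdgfra*-negative cells together, the mural cells among them, held 82.2 and 65.7 CPM of *Il33*, with thinned shares of 14.2% and 9.67%. Of the 1519 and 776 UMIs there, no set with at least 3 of 5 markers of a cell type held more than 5 and 17. The remaining cells had no assigned type.

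Within the Pi16+Dpp4+ cells the level of *Il33* differed between the libraries by less than counting error, at 102.2 CPM (100.7 to 103.7) and 102.6 CPM (100.8 to 104.4). The ratio there was 1.004 (0.981 to 1.03). In the other *Pdgfra*-positive cells *Il33* was at 32.7 CPM at puberty and 11.8 CPM in the adult, so that the Pi16+Dpp4+ cells exceeded the rest 3.12-fold (2.98 to 3.28) at puberty and 8.72-fold (8.26 to 9.20) in the adult. *Il33* was the 1 member of 7 tested that was at least 1.5-fold higher in these cells in both libraries, where 7.29% of all genes were, and 0 of 7 were lower, where 8.69% of all genes were. The subset itself made up 74.1% of *Pdgfra*-positive cells at puberty and 42.2% in the adult, a share that depends on the detection of *Pi16* and *Dpp4* in each cell. With the make-up of the 6 subsets held equal, the adult over puberty ratio of *Il33* was 1.05, on the other side of 1 from the pooled ratio.

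In the other 5 subsets *Il33* was lower in the adult, by ratios from 0.312 (0.256 to 0.382) in the *Crabp1* cells to 0.632 (0.545 to 0.730) in the *Ccn5* cells. Most of these subsets also held a smaller share of Pi16+Dpp4+ cells in the adult. That share was 55.9% and 30.4% in the Gdf10/Fmo2 cells, 24.6% and 11.9% in the *Crabp1* cells and 23.3% and 15.4% in the *Fabp4* cells. It was 90.5% and 72.8% in the *Ccn5* cells, and 45.5% and 44.3% in the Thbs4/Bmp5 cells. The part of this overlap in the lower ratios was not tested. At puberty the order of *Il33* levels ran from the Gdf10/Fmo2 cells (64.6 CPM) and the Thbs4/Bmp5 cells (57.2 CPM) over the *Ccn5* cells (45.9 CPM) and the *Crabp1* cells (34.0 CPM) to the *Fabp4* cells (22.2 CPM) and the cells in none of the subsets (22.4 CPM). In the adult the Thbs4/Bmp5, Gdf10/Fmo2 and *Ccn5* cells lay at 32.0, 31.7 and 29.0 CPM, with overlapping intervals, followed by the *Crabp1* cells at 10.6 CPM, the *Fabp4* cells at 8.18 CPM and the cells in no subset at 3.77 CPM. The last 2 at puberty also had overlapping intervals. Without marked doublets the ratio to the rest went in the *Fabp4* cells from 0.236 to 0.128 at puberty and from 0.126 to 0.0390 in the adult, and in the *Crabp1* cells from 0.390 to 0.252 and from 0.168 to 0.0915. Fibroblasts marked by *Fabp4*, an early fat cell gene, or by *Crabp1* were thus at the low end in both libraries.

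The subsets overlap, and this bears on the comparison with the rest. Of the *Ccn5* cells, 90.5% at puberty and 72.8% in the adult were also Pi16+Dpp4+, and 63.9% and 51.5% of all cells were in exactly 1 subset. Set against all other cells, *Il33* was at least 1.5-fold lower in both libraries in the Gdf10/Fmo2 cells, with ratios of 0.636 and 0.389, and in the Thbs4/Bmp5 cells, with ratios of 0.653 and 0.528. When cells in exactly 1 subset were set against cells in none, both directions turned, to ratios of 2.43 and 5.87 in the Gdf10/Fmo2 cells and of 2.24 and 9.99 in the Thbs4/Bmp5 cells, while the ratios of the Pi16+Dpp4+ cells became 5.30 and 41.3. The cells in none of the subsets were shallower, with medians of 9809 and 7470 UMIs.

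**Figure D2:**
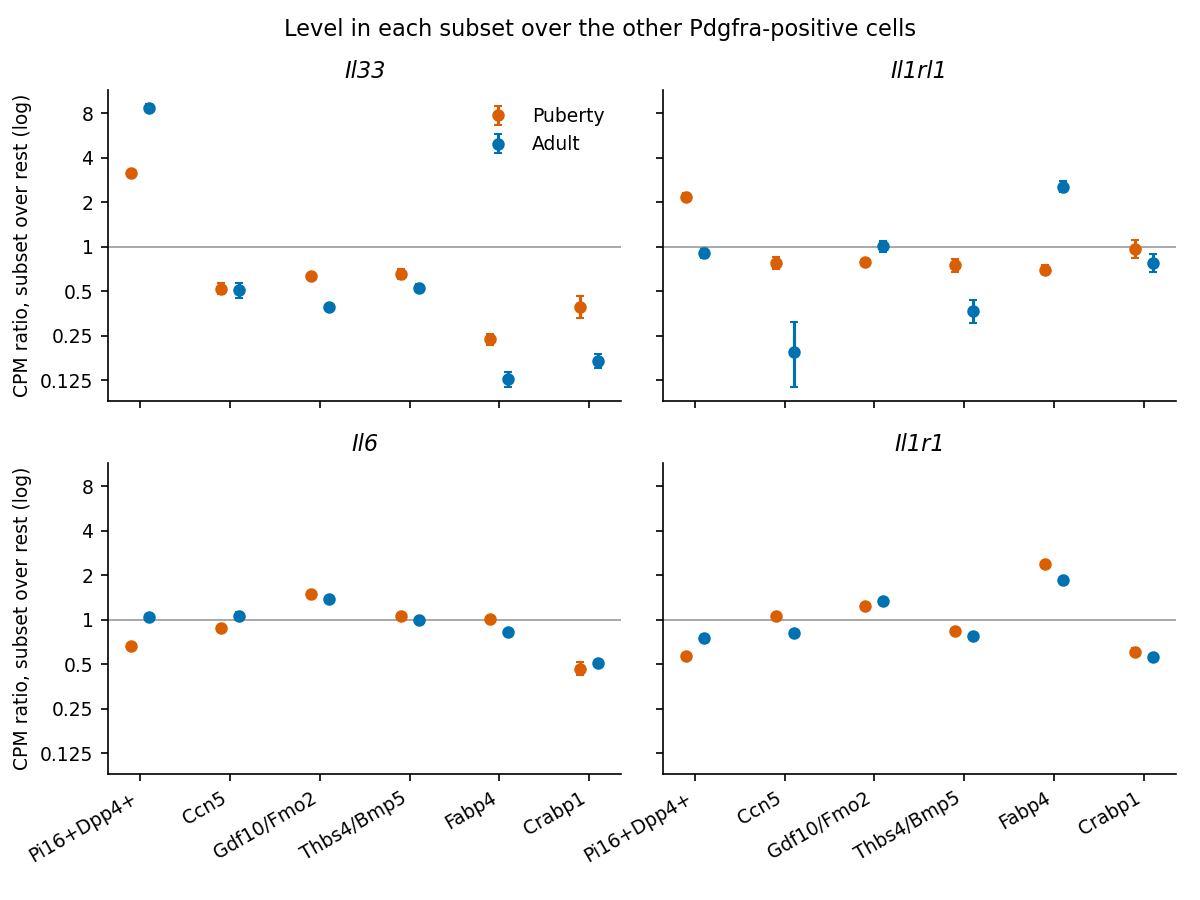
Ratio of the CPM in each subset over that in the other Pdgfra-positive cells of the same library (log axis) for Il33, Il1rl1, Il6 and Il1r1, at puberty (orange) and in the adult (blue), with conditional binomial 95% intervals. Il33 was at 3.12 and 8.72 in the Pi16+Dpp4+ cells and under 1 in the other 5 subsets, whereas the points of Il1rl1 lay on opposite sides of 1 in the Fabp4 cells. In the Pi16+Dpp4+ cells the adult point of Il1rl1, at 0.905, moved above 1 under 2 alternatives, to 1.04 and 1.46.

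*Tslp*, the other alarmin, was higher in the adult library. It was at 5.22 CPM at puberty (4.93 to 5.52) and 10.2 CPM in the adult (9.81 to 10.6), with a ratio of 1.96 (1.83 to 2.10), and it had a UMI in 1.56% and 2.83% of thinned cells. Its ratio was above 1 in all 6 subsets, from 1.61 to 2.49, and the interval lay above 1 in 5 of them, the *Crabp1* cells being the exception (0.979 to 2.81). In the cells of no subset it was at 10.4 and 10.5 CPM, but 1 pubertal cell held 27 of the 66 UMIs there, and without the highest cell of each library the levels were 6.16 (4.38 to 8.43) and 10.3 CPM (8.92 to 11.8), an alternative chosen after seeing the data. The share of these cells with a *Tslp* UMI was 4.49% (3.07 to 6.31) and 7.36% (6.36 to 8.46). In the adult, the Thbs4/Bmp5 cells had the most, at 14.4 CPM against 9.43 CPM in the rest, and the *Fabp4* cells 6.97 against 10.8 CPM. Mural cells held 13.2 and 13.6 CPM, and their thinned shares of 2.30% and 2.85% were no lower than those of the fibroblasts.

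*Il6* (chr5:30013114-30019981, plus strand) was lower in the adult library in every subset. Over all cells it was at 187.3 CPM at puberty (185.5 to 189.0) and 94.2 CPM in the adult (93.0 to 95.4), with a ratio of 0.503 (0.495 to 0.511), and 25.7% and 13.6% of thinned cells had a UMI. The transcript was concentrated in few cells: the 7.32% of pubertal cells with at least 10 UMIs held 50.9% of all *Il6* UMIs, and the 3.04% of adult cells held 42.6%. Within subsets the ratio lay between 0.422 in the *Fabp4* cells and 0.599 in the *Ccn5* cells. The *Crabp1* cells had the least, at 88.0 and 51.1 CPM against 189.1 and 100.7 CPM in the rest, and the Gdf10/Fmo2 cells the most, at 231.9 and 108.7 CPM. Mural cells, at 296.2 and 154.8 CPM, had an *Il6* UMI in 27.3% and 11.4% of thinned cells, near the shares of the fibroblasts.

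The ratios of *Csf1* (chr3:107741048-107760469, minus strand) and *Lif* (chr11:4257557-4272514, plus strand), the ligand of the LIF receptor, did not reach 1.5-fold. *Csf1* was at 182.5 CPM at puberty and 183.6 CPM in the adult, a ratio of 1.01 whose interval (0.993 to 1.02) includes 1, and its direction turned with the processing, from 0.912 with TMM factors to 1.08 with equal make-up of the subsets. Its thinned shares were 36.5% and 33.7%. Among the subsets it was highest in the *Ccn5* cells, at 236.8 and 267.1 CPM, and lowest in the *Crabp1* cells, at 139.9 and 132.0 CPM, and mural cells held 25.7 and 24.4 CPM. *Lif* had 686 and 491 UMIs in all, a ratio of 0.684 (0.608 to 0.770), and no cell held more than 7. Its thinned shares were 0.760% and 0.617%. In the Pi16+Dpp4+ cells it was at 3.14 against 2.10 CPM in the rest at puberty and 2.59 against 1.41 CPM in the adult. These ratios were 1.496 (1.22 to 1.84) and 1.84 (1.53 to 2.23). In the *Crabp1* cells they were 0.403 (0.130 to 0.944) and 0.416 (0.275 to 0.606), from 5 and 29 UMIs. All *Lif* levels given lay under the minimum for a counted ratio.

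Among the receptors, *Il1rl1* differed most between the stages, and was the 8th lowest of the 8645 genes by its ratio. It was at 50.8 CPM at puberty (49.9 to 51.7) and 8.76 CPM in the adult (8.39 to 9.13), with a ratio of 0.172 (0.165 to 0.180). A UMI was found in 5.65% of thinned pubertal cells (5.32 to 5.99) and 1.11% of thinned adult cells (0.974 to 1.27), and in 9.43% and 2.26% without thinning. Mural cells had none in either library, where 0 of 392 and of 246 thinned cells allows shares of up to 0.937% and 1.49%. The pubertal share thus lay above this background, while the adult share lay under the limit that the few adult mural cells set. All *Pdgfra*-negative cells together, the mural cells among them, held 35.9 and 5.08 CPM of *Il1rl1*, with thinned shares of 2.89% and 0.765%. Among them, cells with at least 3 of 5 endothelial, immune, epithelial, Schwann or skeletal muscle markers also had 0 *Il1rl1* UMIs in both libraries. Some of these sets were small, with 2 immune cells in each library. The *Il1rl1* UMIs thus lay in cells of no assigned type. Whether these were fibroblasts without a *Pdgfra* UMI was not tested.

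Few cells held most of the *Il1rl1* transcript. At puberty 439 cells (2.33%) had at least 10 UMIs, up to 68, and held 68.7% of the *Il1rl1* UMIs. In the adult 65 cells (0.310%) had as many and held 55.3%. The share of cells with 1 to 9 UMIs was 7.11% and 1.95%. The high cells differed in make-up by subset between the libraries, which was not tested. At puberty 88.4% of them were Pi16+Dpp4+ and 7.52% *Fabp4* cells, against 72.6% and 9.63% of the cells without *Il1rl1*. In the adult 41.5% of them were Pi16+Dpp4+ and 43.1% *Fabp4* cells, against 41.9% and 12.0% of the cells without it. Gdf10/Fmo2 cells made up 61.5% of the adult high cells, against 48.1% of the cells without *Il1rl1*, and 35.1% against 40.3% at puberty. The more numerous adult cells with 1 to 9 UMIs were 57.0% Pi16+Dpp4+ and 13.9% *Fabp4* cells. At puberty the cells with 1 to 9 UMIs were 88.6% and 7.38%. The high cells also had a deeper count, with medians of 13973 and 16474 UMIs against 12071 and 11208 in cells without *Il1rl1*.

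**Figure D3:**
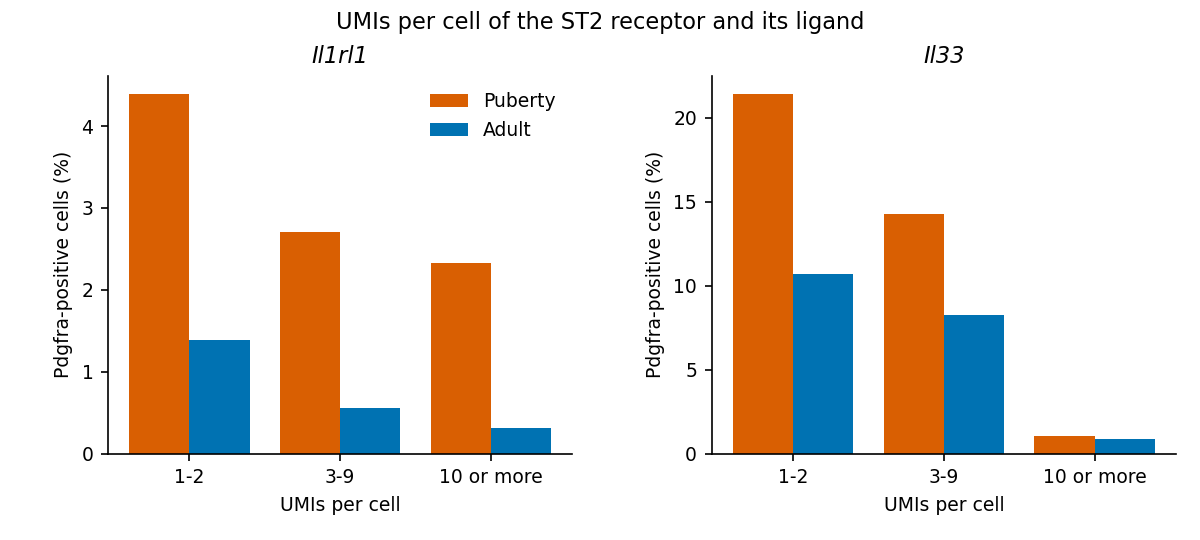
Percent of Pdgfra-positive cells with 1 to 2, 3 to 9, and 10 or more UMIs of Il1rl1 (left) and Il33 (right), at puberty (orange) and in the adult (blue), each axis starting at 0. Cells with at least 10 Il1rl1 UMIs made up 2.33% at puberty and 0.310% in the adult, whereas for Il33 they made up 1.02% and 0.867%.

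The ratio of *Il1rl1* between a subset and the rest differed in size between the libraries. In the Pi16+Dpp4+ cells it was at 58.1 CPM against 26.7 CPM in the rest at puberty, a ratio of 2.18 (2.06 to 2.30), and at 8.31 against 9.19 CPM in the adult, a ratio of 0.905 (0.831 to 0.985). This adult value was above 1 when each cell's CPM was averaged (1.04) and for cells in exactly 1 subset against cells in none (1.46, with 1.83 at puberty), and in the adult more Pi16+Dpp4+ cells than other cells had a UMI, 2.94% against 1.76% (1.16% against 1.08% after thinning), so no adult direction is given. In the *Fabp4* cells it was at 36.7 against 52.5 CPM at puberty, a ratio of 0.698 (0.652 to 0.746), and at 18.1 against 7.10 CPM in the adult, a ratio of 2.55 (2.32 to 2.79). For cells in exactly 1 subset against cells in none these became 0.976 and 1.94. A UMI was found in 7.42% of the *Fabp4* cells and 9.64% of the rest at puberty (4.18% and 5.80% after thinning). In the adult it was found in 3.33% and 2.11% (2.12% and 0.971% after thinning). The intervals take UMIs as independent, so they are too narrow for *Il1rl1*, where few cells held most UMIs. With 1 library each, whether the ratios to the rest differ between the stages was not tested. *Il1rl1* was lower in the adult in all 6 subsets, least in the *Fabp4* cells, with a ratio of 0.493 (0.446 to 0.545), and most in the *Ccn5* cells, where 489 UMIs at puberty compared with 17 in the adult, a ratio of 0.0438 (0.0253 to 0.0709). The Thbs4/Bmp5 cells had 38.4 and 3.54 CPM, the Gdf10/Fmo2 cells 43.7 and 8.78 CPM, and the *Crabp1* cells 49.3 and 6.96 CPM. In the adult, the *Fabp4* cells were the highest of the 6 subsets, and the intervals of the Gdf10/Fmo2 and Pi16+Dpp4+ cells next in order overlapped.

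*Il1r1*, the IL-1 receptor, was lower in the adult in all 6 subsets and highest in the *Fabp4* cells at both stages. It was at 467.9 CPM at puberty (465.1 to 470.6) and 265.4 CPM in the adult (263.4 to 267.5), with a ratio of 0.567 (0.562 to 0.573), and within subsets the ratio lay between 0.439 and 0.572. The *Fabp4* cells had 974.7 CPM against 406.6 CPM in the rest at puberty and 436.5 against 235.0 CPM in the adult, ratios of 2.40 and 1.86. The *Crabp1* cells had the least, at 285.9 and 157.5 CPM. At least 10 UMIs were counted in 17.6% of pubertal cells and 6.66% of adult cells, whereas the thinned shares with at least 1 UMI were closer, at 50.1% and 41.0%. Mural cells held 338.9 and 234.1 CPM, with thinned shares of 47.4% and 41.1%.

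*Il1rl1* and *Il1r1* lie in a cluster of IL-1 receptor family genes on chromosome 1, and because both were lower, their neighbours were examined after these values had been seen. On GRCm38 (GENCODE) *Il1r1* spans 40225080 to 40317257 and *Il1rl1* 40429570 to 40465415, both on the plus strand. Of the other genes of the cluster, 3 had intervals under 1. *Il1r2*, a decoy receptor of IL-1, had a ratio of 0.718 (0.704 to 0.733), *Il1rl2*, the receptor of IL-36, 0.798 (0.787 to 0.808), and *Il18r1*, a chain of the IL-18 receptor, 0.280 (0.256 to 0.307) at 8.63 and 2.42 CPM. *Il18rap* had 5 UMIs and 0, too few for a comparison. Beyond the cluster, *Map4k4* was higher in the adult at a ratio of 1.57, and *Slc9a4* at 0.976 had an interval that includes 1 (0.828 to 1.15). The remaining flanking genes lay under 1 CPM in both libraries. Of these *Rfx8* was at 2.61 (1.65 to 4.26), *Mfsd9* at 1.30 (1.06 to 1.61) and *Slc9a2* at 0.837 (0.443 to 1.57), and *Gm3646* had 3 UMIs and 2. The annotated end of *Il1rl1* is 136 bases before the start of *Il18r1* on the same strand, so reads near this border may be counted for either gene.

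**Figure D4:**
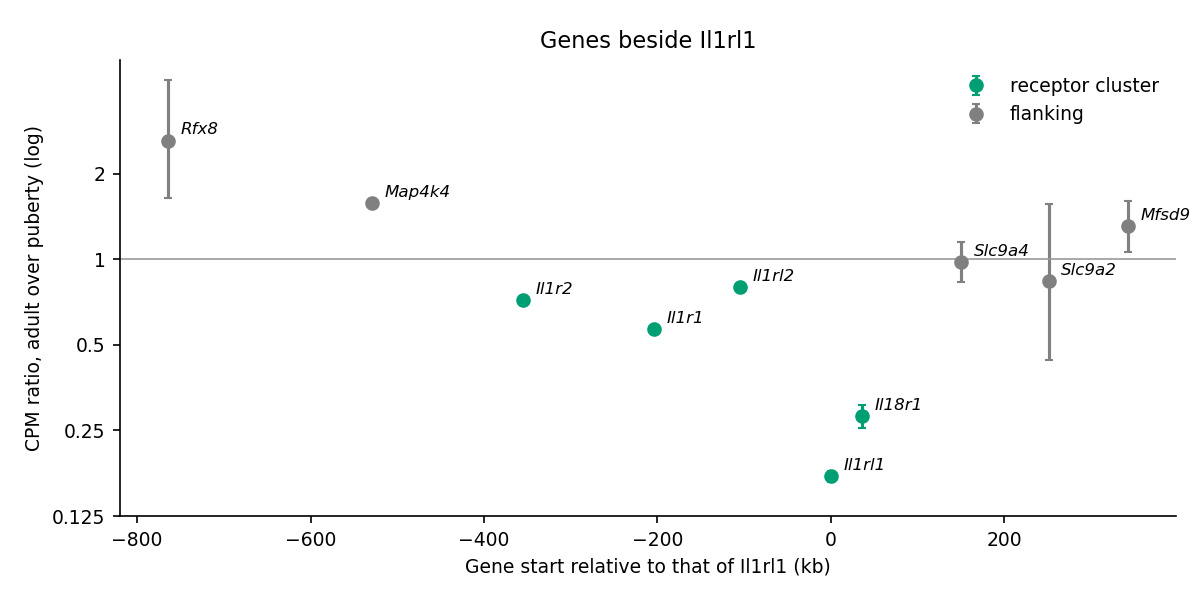
Ratio of adult over pubertal CPM (log axis) for the genes around Il1rl1 against the distance of their starts from that of Il1rl1 in kb, with conditional binomial 95% intervals. The receptor genes of the cluster (green) lay under 1, lowest for Il1rl1 at 0.172 and Il18r1 at 0.280, and of the flanking genes (grey) Map4k4 lay at 1.57. Il18rap and 1 flanking gene, both under 0.1 CPM, are not drawn.

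The 3 members that encode receptor chains of the IL-6 family differed less between the stages than *Il1rl1* and *Il1r1*. *Il6st* lies at chr13:112464070-112510086 and *Il11ra1* at chr4:41699989-41769474, both on the plus strand, and *Osmr* at chr15:6813577-6874969 on the minus strand. *Il6st*, which encodes gp130, was at 292.0 CPM at puberty (289.9 to 294.2) and 267.7 CPM in the adult (265.7 to 269.8), with a ratio of 0.917 (0.907 to 0.927), and 55.0% and 50.5% of thinned cells had a UMI. Within the subsets its ratio lay between 0.864 and 1.01, and the interval lay under 1 in 3 of 6. *Osmr*, the oncostatin M receptor chain, was at 197.3 CPM (195.5 to 199.1) and 232.4 CPM (230.5 to 234.3), a ratio of 1.18 (1.16 to 1.19), above 1 in 5 subsets and under 1 in the *Fabp4* cells at 0.923 (0.897 to 0.951). *Il11ra1*, the ligand-binding chain for IL-11, was at 108.0 CPM (106.7 to 109.3) and 163.3 CPM (161.8 to 164.9), a ratio of 1.51 (1.49 to 1.54), just past the fold. It was higher in the adult in all 6 subsets, by 1.26 to 1.75, and level in the cells of no subset, at 125.1 and 127.1 CPM. The near-identical copy *Il11ra2* had 2 UMIs and 1, and reads that fit both copies cannot be assigned.

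At puberty all 3 chains were lower in the Pi16+Dpp4+ cells than in the rest, with ratios of 0.743 for *Il6st*, 0.558 for *Osmr* and 0.522 for *Il11ra1*. In the adult these ratios were 0.997, 0.880 and 0.913, closer to 1. *Il11ra1* was highest in the *Ccn5* cells, at 156.7 against 105.3 CPM at puberty and 267.2 against 159.1 CPM in the adult, ratios of 1.49 and 1.68. *Osmr* was highest in the *Fabp4* cells, at 300.8 and 277.8 CPM. In the *Crabp1* cells all 3 were under the rest at both stages, *Il6st* at 185.9 and 172.3 CPM against 294.0 and 282.1 CPM. Mural cells held 323.6 and 335.1 CPM of *Osmr*, with thinned shares of 55.9% and 48.8%, but 27.1 and 25.0 CPM of *Il11ra1*.

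**Figure D5:**
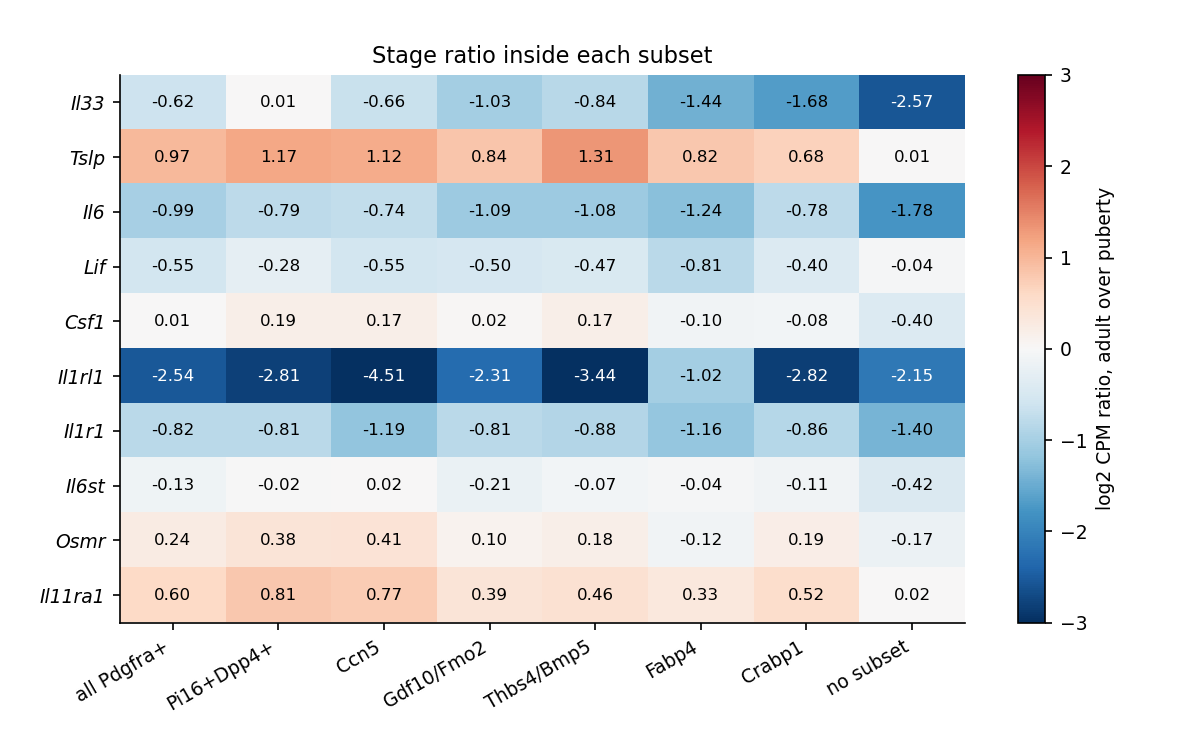
Log2 ratio of adult over pubertal CPM of each member over all Pdgfra-positive cells, inside each of the 6 subsets and in the cells of no subset, with red above 0 and blue under 0. Il33 was at 0.01 in the Pi16+Dpp4+ cells and negative elsewhere, Il1rl1, Il6 and Il1r1 were negative throughout, and Tslp and Il11ra1 were positive or near 0, the Tslp value in the cells of no subset resting on 1 pubertal cell.

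Counted over the members tested in both libraries at 1.5-fold, the subsets other than the Pi16+Dpp4+ cells were as follows. In the *Ccn5* cells 0 of 7 were higher (1.66% of all genes) and 1 was lower, *Il33* (2.28%). In the Gdf10/Fmo2 cells 0 were higher (1.83%) and *Il33* was lower (1.84%), and in the Thbs4/Bmp5 cells 0 were higher (3.09%) and *Il33* was lower (2.37%). In the *Fabp4* cells, where 8 were tested, *Il1r1* was higher (3.7%) and *Il33* lower (5.12%). In the *Crabp1* cells 0 of 7 were higher (9.15%) and 4 were lower, *Il33*, *Il6*, *Il6st* and *Il1r1* (8.93%). The *Crabp1* subset held 289 cells at puberty (1.53%) and 2672 in the adult (12.7%).

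*Il33* and its receptor gene were rarely counted in the same thinned cell. They were detected together in 259 pubertal cells (1.40%) and 34 adult cells (0.165%), 1.38 and 1.43 times the product of their shares. Nearly all of these were Pi16+Dpp4+ cells, 258 and 33, with 1 such cell outside at each stage, and within the Pi16+Dpp4+ cells the quotients were 1.27 and 1.55. Outside them the quotients were 0.137 and 0.318, each from 1 cell. *Il33* with *Il6* gave 1.10 and 1.45, and *Il1r1* with *Il6* gave 1.20 and 1.21. For *Il33* with *Il6* the quotients were 1.07 and 1.23 within the Pi16+Dpp4+ cells and 1.74 and 2.29 outside. *Il33* with *Tslp* gave 0.943 and 0.944, from 49 and 57 cells. *Il6st* was counted with *Osmr* in 20.2% and 20.9% of cells and with *Il11ra1* in 14.9% and 18.7%, quotients of 1.05 to 1.08. These quotients are descriptions of cells that share a library and its depth.

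The other genes of these pathways were taken from lists in the design of the analysis. Their counts stand beside 12.0% of all 8645 genes higher and 5.09% lower in the adult at 10 CPM and 1.5-fold, and beside a median log2 ratio of 0.13. Of the alarmin and IL-1 axis, 9 of 16 genes reached 10 CPM, of which 2 were higher in the adult, the caspase gene *Casp1* (ratio 1.61) and the signal adaptor gene *Traf6* (1.59), and 0 were lower, with a median log2 ratio of 0.17. The ligands *Il1a* and *Il1b* had 0 UMIs at puberty, and 0 and 2 in the adult. *Il1rap*, the shared partner chain of ST2 and IL-1R1, was at 49.97 and 66.1 CPM, a ratio of 1.32. Of the IL-6 axis, 7 of 17 reached the level, and *Lifr*, the LIF receptor chain, was higher at 26.8 and 50.1 CPM (1.87), while *Il6ra*, the IL-6 receptor chain, was lower at 209.8 and 138.5 CPM (0.660), and the median was -0.24. *Osm* had 0 and 3 UMIs. Like *Il33*, *Il6ra* was higher in the Pi16+Dpp4+ cells, by 2.38 and 2.86, and *Lifr* was lower there, by 0.235 and 0.495. *Il18*, of the alarmin and IL-1 axis, was at 100.7 against 6.99 CPM in the rest at puberty, a ratio of 14.4. In the adult it was at 107.0 against 6.25 CPM, a ratio of 17.1. It was named after these values had been seen. Of the TSLP and CSF axis, 3 of 12 reached 10 CPM with a median of 0.40, and 1 was higher, *Il34*, which encodes another ligand of the M-CSF receptor, at 11.1 and 49.0 CPM (4.41). In the *Crabp1* cells, 1.53% and 12.7% of cells, *Il34* was at 61.8 against 10.2 CPM in the rest at puberty. In the adult it was at 169.8 against 30.7 CPM there. The part of this make-up in the stage ratio of *Il34* was not tested. The TSLP receptor chain gene *Crlf2* lay under 10 CPM in both libraries, at 4.92 and 9.04 CPM, while its partner *Il7r* had 2 UMIs and 1.

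Of the NF-kB and IL-1 target genes, 16 of 18 reached 10 CPM, 5 were lower and 2 were higher in the adult, and their median was -0.07, where 5.09% and 12.0% of all genes were and the median was 0.13. The lower ones were the chemokine genes *Cxcl2* (48.7 and 10.5 CPM, ratio 0.216), *Ccl7* (364.1 and 127.2 CPM, 0.349), *Ccl2* (262.8 and 120.4 CPM, 0.458) and *Cxcl1* (1682.6 and 785.5 CPM, 0.467), and the prostaglandin synthase gene *Ptgs2* (278.5 and 127.4 CPM, 0.458). The higher ones were *Icam1* (76.1 and 153.5 CPM, 2.02) and the NF-kB inhibitor *Tnfaip3* (49.2 and 82.7 CPM, 1.68). *Cxcl1*, *Icam1* and *Tnfaip3* were named after their values had been seen. Genes that respond to tissue dissociation also differed between the libraries. All 18 reached 10 CPM and summed to 25755.8 CPM at puberty and 31937.3 CPM in the adult, with a median of 0.35 beside 0.13 over all genes. Of them 5 were higher (12.0% of all genes), the heat shock genes *Hspa1b* (8.03) and *Hspa1a* (5.29), *Egr2* (2.55), *Ier2* (2.04) and *Jun* (1.66), and *Fosl1* was lower (0.357, beside 5.09% of all genes). *Ier2* and *Jun* were likewise named after their values had been seen. The part of dissociation in the difference of *Il6*, *Il1r1* or the other members was not tested.

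The genes whose pattern was most like that of a member, by Pearson's r of log2(CPM + 1) over 14 sums (the 6 subsets and the cells in none, in each library) among 9556 genes, differed from member to member. They were *Islr2* (r = 0.973), *Aldh1a3* (0.973) and *Uchl1* (0.969) for *Il33*, and *Dot1l* (0.966), *Xpot* (0.957) and *Slc66a2* (0.956) for *Il1rl1*. For *Il6st* they were *Fzd4* (0.971), *Socs3* (0.959), a feedback inhibitor of gp130 signalling, and *Smpdl3a* (0.951), and for *Il1r1* *Alas1* (0.981), *Atp6v1h* (0.974) and *Nlrc5* (0.971). For *Osmr* they were *Dnajb1* (0.971), *Casp4* (0.966) and *Ifih1* (0.962), for *Il6* *Taf4b* (0.960), *Gm29685* (0.955) and *Fer1l5* (0.955), for *Il11ra1* *Pmm1* (0.935), *Tspo* (0.928) and *Flot2* (0.924), and for *Csf1* *Il3ra* (0.925), *Psmb10* (0.923) and *Slc1a5* (0.9196). Those of *Tslp* were *Gm19951* (0.914), *Eps15* (0.901) and *Ercc3* (0.898). The sums share cells and libraries, so r describes them only.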

How the data were processed

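The labels name a 10x Genomics GEM-X 3′ kit and Lin–CD24– sorted cells, with 1 library per stage. The authors deposited filtered matrices of raw UMI counts per gene and barcode, produced with Cell Ranger 8.0.1 and the mm10 build per the submitters' processing notes and not normalized. The study's methods give other versions of kit and software and a slightly greater pubertal age. Of 33696 gene IDs, 1735 were absent from GENCODE M21, so coordinates are those of GENCODE or RefSeq on GRCm38. The members, lists and subsets were chosen with earlier results of these data known.

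Cells with at least 500 genes, at most 10% mitochondrial UMIs and at least 1 *Pdgfra* UMI were kept. Subsets had at least 1 UMI of *Pi16* and of *Dpp4*, 2 of *Ccn5*, 1 of *Gdf10* or *Fmo2*, 1 of *Thbs4* or *Bmp5*, 2 of *Fabp4*, or 1 of *Crabp1*. Raw counts were summed and divided to CPM. A gene was counted at 1.5-fold with at least 10 CPM on 1 side, in both libraries for subsets. Intervals are exact Poisson for CPM, Clopper-Pearson for shares and conditional binomial for ratios, all at 95% and for counting error only. Depth is 255274670 and 259549498 UMIs. Shares were compared after thinning each cell to 3000 UMIs. All 10 members are named in the comparison of the stages, and their subset values are given in part. From each list up to 4 genes past the fold were named by size. For each member at 10 CPM the 3 genes most like it were named.

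Doublets were kept in the main values. The alternative removed the barcodes with the highest Scrublet scores (scanpy 1.11.5) at 0.4% per 1000 barcodes, 8.67% and 9.27%, where Scrublet's own threshold marked 2.17% and 3.17%. Other alternatives were TMM factors (edgeR 4.0.16, R 4.3.3), the average CPM per cell, equal make-up of the subsets, at least 1000 genes, at most 5% mitochondrial UMIs, 2 *Pdgfra* UMIs, 2-fold, other CPM minimums, thresholds 1 UMI higher, and cells in exactly 1 subset. The ratios, intervals and thinning were tested on simulated data (numpy 2.4.6, scipy 1.17.1).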

Additional observations from a re-analysis of the deposited data

Results flagged for a closer look

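The level in a subset over the other *Pdgfra*-positive cells lay on opposite sides of 1 in the pubertal and the adult library, with both intervals clear of 1, for 3 members. These differences between the stages were not tested, since each stage had 1 library. For *Il1rl1*, where few cells held most UMIs, the intervals are too narrow. For *Il1rl1* in the Pi16+Dpp4+ cells the ratios were 2.18 at puberty and 0.905 in the adult, an adult over pubertal quotient of 0.415, but they lay on the same side of 1 with the average CPM per cell (2.40 and 1.04) and for cells in exactly 1 subset against cells in none (1.83 and 1.46). For *Il1rl1* in the *Fabp4* cells they were 0.698 and 2.55, a quotient of 3.65, and 0.976 and 1.94 for cells in exactly 1 subset. For *Il6* in the Pi16+Dpp4+ cells they were 0.662 and 1.05, a quotient of 1.59, and kept their sides of 1 under the 4 alternatives run. For *Il1r1* in the *Ccn5* cells they were 1.06 and 0.810, a quotient of 0.765, and both swapped sides for cells in exactly 1 subset, to 0.837 and 1.09, from 15 and 20 *Ccn5* cells.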

How the results depend on the processing

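No paired analysis was possible because each stage had 1 library, and no replicate could be left out. Among members past 1.5-fold, 1 stage ratio changed direction, *Il33* with equal make-up of the subsets (1.05), and so did 4 subset ratios, of *Il33* with cells in exactly 1 subset against cells in none, at 2.43 and 5.87 in the Gdf10/Fmo2 cells and 2.24 and 9.99 in the Thbs4/Bmp5 cells. Of all 400 alternative subset ratios whose reported interval is clear of 1, of any size, 16 lay on the other side of 1, 14 of them with cells in exactly 1 subset, among them *Il1rl1* in the pubertal *Ccn5* cells (0.778 to 6.23, from 15 cells) and *Il1r1* in the pubertal Gdf10/Fmo2 cells (1.24 to 0.705). *Csf1*, whose stage interval includes 1, lay between 0.912 and 1.08. None of 27 such shares of cells crossed 1.

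Percentages below are of all genes. The 2 members higher in the adult became 0 with TMM factors (7.91%) or after thinning (13.6%), where *Tslp* was under 10 CPM, or at 2-fold (4.40%), and 1 with the average CPM per cell (13.3%), equal make-up (6.27%) or a minimum of 50 CPM (10.4%). The 4 lower became 1 at 2-fold (1.86%) and 3 with equal make-up (3.70%) or without marked doublets (5.10%), losing *Il33*. In subsets, 2-fold left 0 members higher in the *Fabp4* cells (1.45%), 0 lower in the *Ccn5* (0.929%), Gdf10/Fmo2 (0.460%) and Thbs4/Bmp5 cells (0.589%) and 1 lower in the *Crabp1* cells (4.84%). Cells in exactly 1 subset gave 4 higher (3.20%) and 0 lower (2.80%) in the Gdf10/Fmo2 cells, 1 higher (4.42%) and 0 lower (5.58%) in the Thbs4/Bmp5 cells, 0 lower in the *Fabp4* cells (4.35%), 2 lower in the *Ccn5* cells (11.1%, from 15 and 20 cells) and 4 lower in the *Crabp1* cells (7.35%), where *Osmr* and *Tslp* took the place of *Il33* and *Il6st*. Higher thresholds gave 1 member higher in the *Ccn5* (2.23%) and Gdf10/Fmo2 cells (2.54%) and 7 lower in the *Crabp1* cells (10.3%), and the average CPM per cell 1 higher in the *Ccn5* (1.72%) and 0 lower in the Thbs4/Bmp5 cells (2.62%). The causes were not tested. *Il1rl1* kept a stage ratio between 0.156 and 0.195 under all 8 alternatives, and depth limits the adult *Ccn5* cells, with 17 of its UMIs.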
